A study of Homo sapiens with 24 samples.

Results

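The transcripts of 7 enzymes and cofactors of DNA methylation were followed in 24 RNA-seq libraries of U2OS cells, an osteosarcoma cell line. They were DNMT1, DNMT3A, DNMT3B, UHRF1, TET1, TET2 and TET3, chosen by gene symbol, and each had 1 row among the 57820 genes of the deposited count tables. The libraries formed 8 groups of 3 replicates. AID-DIvA U2OS cells, a derivative that carries an inducible restriction enzyme for making DNA double-strand breaks, had either WT or ID3-KO genotype. They were sampled without treatment, or after 24 h with mocetinostat and another 24 h of recovery. U2OS cells of both genotypes were sampled without treatment or after 24 h with mocetinostat. Mocetinostat inhibits class I histone deacetylases, and ID3 is a helix-loop-helix protein that holds E proteins away from the E-box sequence. The sources give no dose for these libraries and do not say whether a genotype was 1 clone or several. That the second set was collected before recovery follows from its description and the methods, and the library names of that set also carry DivA, so that stage and cell line label cannot be told apart. In the AID-DIvA set the titles of the libraries and their treatment field give opposite conditions. The library names in the descriptions give the same condition as the titles. The titles were followed, and under the field every AID-DIvA treatment difference below would have the opposite sign.

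DNA methylation in mammals is written by DNMT3A and DNMT3B, which methylate unmodified CpG sites, and is copied at replication by DNMT1, which UHRF1 brings to hemimethylated CpG sites. TET1, TET2 and TET3 oxidise 5-methylcytosine, the first step of active demethylation. Histone deacetylases and DNA methylation both silence promoters, and cancer cell lines such as U2OS divide with a maintenance machinery whose transcripts are cell-cycle regulated.

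Library totals lay between 37878751 and 76906266 counts in the AID-DIvA set and between 46285533 and 70692114 in the U2OS set. ID3, the targeted gene, was lower in ID3-KO than in WT cells in all 4 genotype comparisons, by -0.56 to -1.21 on the log2 scale, and its transcript remained at 30.3 to 63.9 CPM (counts scaled to the library total, with TMM factors) in the KO libraries. Mesenchymal markers were high, with VIM at 436 to 899 CPM and COL1A1 at 799 to 2645 CPM, and RUNX2 at 12.2 to 49.6 CPM; ALPL reached 6.74 CPM, whereas the osteoblast genes SP7, IBSP and BGLAP stayed below 1 CPM, as did the leukocyte genes PTPRC and CD3E and the hepatocyte gene ALB; EPCAM reached 10.8 CPM and CDH1 1.96 CPM. Replicate 1 of untreated WT U2OS cells stood apart from its group: its chi-square per gene was 103 and 91.1 against the other 2 replicates, which differed from each other by 4.32. Some results that rest on it are given with and without it, and the others with it alone. The methods describe the replicates as biological without saying how they were made, and p-values measure the spread between these libraries. In bulk libraries a lower value per cell and fewer cells with the transcript cannot be told apart.

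The genes lie on chromosomes 2, 4, 10, 19 and 20, with coordinates of GRCh37. DNMT1 spans chr19:10244021-10341962 on the minus strand, UHRF1 chr19:4903092-4962165 on the plus strand, DNMT3A chr2:25455845-25565459 on the minus strand and DNMT3B chr20:31350191-31397162 on the plus strand. TET1 spans chr10:70320413-70454239, TET2 chr4:106067032-106200973 and TET3 chr2:74229840-74335303, all on the plus strand. All 7 genes were found in the RefSeq promoter table (build GRCh38.p14), with 18 windows of 300 bases in all, each of which matched 1 place in GRCh37. For the 3 genes with the largest changes in WT cells before recovery, 1 window each is printed, 5′ to 3′. It runs from 250 bases before to 50 after an annotated start. Capitals mark the E-box CANNTG and, in the UHRF1 window alone, the E2F-type motifs TTTCCCGC and TTCCCGCC, each on either strand.
UHRF1, chr19:4909263-4909562, plus strand: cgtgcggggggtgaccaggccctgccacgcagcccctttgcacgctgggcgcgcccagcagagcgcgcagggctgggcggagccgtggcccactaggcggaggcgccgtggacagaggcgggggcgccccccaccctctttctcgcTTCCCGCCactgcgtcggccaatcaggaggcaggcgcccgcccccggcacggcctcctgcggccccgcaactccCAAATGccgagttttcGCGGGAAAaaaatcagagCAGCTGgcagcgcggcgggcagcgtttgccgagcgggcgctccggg
TET1, chr10:70319844-70320143, plus strand: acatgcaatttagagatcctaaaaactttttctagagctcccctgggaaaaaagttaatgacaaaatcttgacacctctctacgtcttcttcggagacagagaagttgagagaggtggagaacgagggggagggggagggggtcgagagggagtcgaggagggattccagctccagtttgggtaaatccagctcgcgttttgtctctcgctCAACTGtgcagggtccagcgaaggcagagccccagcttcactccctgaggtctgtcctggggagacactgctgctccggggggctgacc
DNMT3B, chr20:31367408-31367707, plus strand: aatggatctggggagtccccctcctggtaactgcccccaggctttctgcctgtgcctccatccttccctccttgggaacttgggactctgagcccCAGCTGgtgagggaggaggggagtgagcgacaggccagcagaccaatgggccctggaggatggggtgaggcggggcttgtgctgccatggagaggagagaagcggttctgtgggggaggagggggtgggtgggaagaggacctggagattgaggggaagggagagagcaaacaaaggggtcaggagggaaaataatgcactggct
The printed UHRF1 window held GCGGGAAA, the reverse complement of TTTCCCGC, from position -14 relative to the start, and TTCCCGCC from position -104. The other UHRF1 windows held neither motif. Among all 35116 promoter windows of this length, 1.63% held TTTCCCGC, 3.16% held TTCCCGCC and 0.652% held TTTGGCGC, the third E2F-type motif searched. UHRF1 was the only 1 of the 7 genes with any of the 3 motifs in a window. Other E2F-type forms were not searched. The DNMT1 window holds GCGCGAAA, the reverse complement of such a form, TTTCGCGC, whose share over all windows was not counted. An E-box was in 13 of the 18 windows (72.2%), those of 6 of the 7 genes, and in 68.7% of all windows. The form CAGCTG was in 4 of the 18, at UHRF1, DNMT3B, TET1 and TET3, and in 17.9% of all windows. At TET1 it was in a window that is not printed. The printed windows held 36 CpG sites at UHRF1, 10 at TET1 and 3 at DNMT3B, against a median of 14 over all windows. The UHRF1 and DNMT3B starts lie 6421 and 17467 bases inside the deposited gene spans, and the TET1 start 319 bases outside, so other starts may have been used in these cells.

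Expressed per transcript length, DNMT1 had the highest mean level of the 7 genes in every group, and TET1 and TET2 had the lowest. UHRF1 came next to DNMT1 except in the treated U2OS groups, where DNMT3B was above it, at 70.9 against 43.7 TPM in WT and 79.4 against 46.4 TPM in ID3-KO cells. Group means of DNMT1 ran from 80.7 to 107 TPM (counts per transcript length, scaled to the same total in each library) and those of UHRF1 from 43.7 to 91.8 TPM. DNMT3B, the second de novo enzyme, ran from 30.8 to 79.4 TPM, whereas its paralog DNMT3A ran from 11.6 to 16.5 TPM. TET3 was the leading eraser at 33.4 to 43.6 TPM. TET2 followed at 4.29 to 8.35 TPM and TET1 at 1.25 to 4.92 TPM, so that the range of TET1 did not overlap that of any other gene but TET2. The lowest TET1 group, treated ID3-KO U2OS cells, had 1.25 ± 0.142 TPM and the next, treated WT U2OS cells, 1.57 ± 0.16 TPM (SD, n = 3). TET1 rested on 172 to 1027 counts per library, and DNMT1 on 11157 to 21320.

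**Figure D1:**
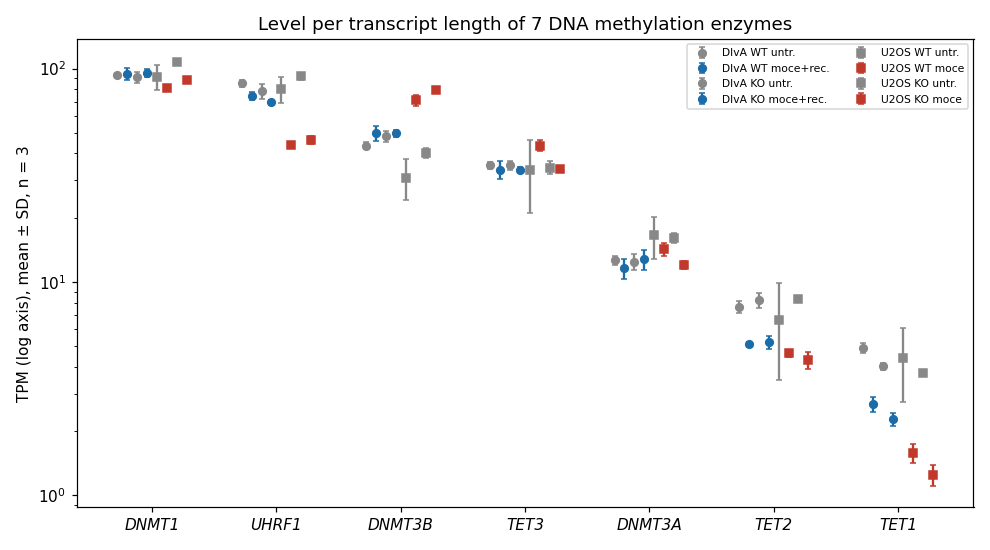
Group means of TPM with SD (n = 3) on a log axis for the 7 genes, ordered by level, with circles for AID-DIvA and squares for U2OS cells, grey for untreated and colours for mocetinostat-treated groups. DNMT1 lies between 80.7 and 107 TPM and TET1 between 1.25 and 4.92 TPM, and the widest bars belong to the untreated WT U2OS group.

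The comparison of treated with untreated U2OS cells gave the response before recovery. In ID3-KO cells, 5 of the 7 genes fell and DNMT3B rose, where 69.9% of all 21176 genes tested were called at an adjusted p below 0.05 in the quasi-likelihood test of edgeR, adjusted over all genes by the method of Benjamini and Hochberg. In that comparison 34.0% of all genes were lower and 35.8% higher. In WT cells 4 of the 7 were called, 3 lower and DNMT3B higher, where 48.9% of 21797 genes were called, 22.9% lower and 26.0% higher. Without replicate 1 of the untreated WT group 6 of the 7 were called, against 66.4% of all genes. With a minimum change of 2-fold, TET1 and DNMT3B remained called in WT cells, where 18.6% of all genes were, and TET1, UHRF1 and TET2 in ID3-KO cells, where 20.3% were. Without replicate 1 of the untreated WT group, TET1 (-1.84) and UHRF1 (-1.04) passed that minimum in WT cells and DNMT3B (0.97) did not, where 19.9% of all genes did.

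UHRF1, the hemimethylated-DNA reader that recruits DNMT1, was at 119, 134 and 135 CPM in the 3 untreated WT U2OS libraries and at 66.3, 64.1 and 65.5 CPM in the treated ones. In ID3-KO cells the untreated libraries had 152, 145 and 147 CPM and the treated ones 74.6, 67.5 and 72.5 CPM. The treated libraries were all lower, with no overlap in either genotype. The log2 change was -0.98 ± 0.08 (SE) in WT cells (adjusted p = 4.1e-05, edgeR) and -1.04 ± 0.05 in ID3-KO cells (adjusted p = 4.9e-15, edgeR), a fall to 0.507 and 0.485 of the untreated level.

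DNMT1, the maintenance methyltransferase, fell less. The untreated WT libraries had 261, 289 and 295 CPM and the treated ones 233, 231 and 226 CPM, without overlap. ID3-KO cells went from 331, 327 and 328 CPM to 267, 254 and 259.7 CPM. The log2 change was -0.29 ± 0.08 in WT cells (adjusted p = 0.015, edgeR) and -0.33 ± 0.04 in ID3-KO cells (adjusted p = 1.8e-07, edgeR). The WT call was lost when libraries were scaled to their totals (adjusted p = 0.088, edgeR) and without any 1 of the 3 treated replicates (adjusted p = 0.06 to 0.077). It was kept without untreated WT replicate 1, the lowest of the untreated WT libraries. S1PR2 and CTD-2369P2.2 lie within the span of DNMT1 on its strand, with at most 252 and 422 counts per library.

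DNMT3B, a de novo methyltransferase, was the only 1 of the 7 genes that rose. Untreated WT U2OS libraries had 36.9, 49.1 and 47.9 CPM and treated ones 92.9, 100.3 and 92.8 CPM. Untreated ID3-KO libraries had 61.0, 57.6 and 56.9 CPM and treated ones 114, 107 and 109 CPM. Every treated library lay above every untreated library of its genotype, and the fold was 2.14 in WT cells (log2 change 1.10 ± 0.12, adjusted p = 2.0e-04, edgeR) and 1.89 in ID3-KO cells (log2 change 0.92 ± 0.05, adjusted p = 4.1e-14, edgeR). DNMT3A, its paralog, moved the other way. Its values were 29.2, 40.0 and 37.7 CPM in untreated WT libraries and 27.1, 30.3 and 28.2 CPM in treated ones, which overlapped. In ID3-KO cells they were 36.0, 34.2 and 33.9 CPM untreated and 26.1, 23.8 and 24.7 CPM treated, without overlap. The log2 change of DNMT3A was -0.32 ± 0.12 in WT cells, which missed the threshold (adjusted p = 0.068, edgeR), and -0.48 ± 0.05 in ID3-KO cells (adjusted p = 5.0e-08, edgeR). Without untreated WT replicate 1 the WT change was -0.45 (adjusted p = 6.7e-11, edgeR).

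TET1 showed the largest change of the 7 genes in both genotypes. Untreated WT U2OS libraries had 7.98, 14.6 and 15.5 CPM, the first of them replicate 1, and treated ones 4.10, 4.68 and 3.95 CPM. Untreated ID3-KO libraries had 10.8, 10.8 and 11.2 CPM and treated ones 3.18, 3.28 and 3.97 CPM. The groups did not overlap in either genotype. The log2 change was -1.58 ± 0.24 in WT cells (adjusted p = 1.2e-03, edgeR) and -1.64 ± 0.09 in ID3-KO cells (adjusted p = 2.1e-13, edgeR), and -1.84 in WT cells without replicate 1.

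TET2, a TET enzyme that lacks the CXXC DNA-binding domain of its paralogs, was at 16.8, 42.8 and 41.9 CPM in untreated WT libraries and at 23.4, 22.2 and 21.2 CPM in treated ones. Replicate 1 of the untreated group lay below all treated libraries, and the other 2 lay above them. In ID3-KO cells TET2 went from 41.4, 43.5 and 44.1 CPM to 19.2, 22.8 and 21.6 CPM, without overlap. The log2 change was -0.60 ± 0.31 in WT cells (adjusted p = 0.15, edgeR), -0.93 there without replicate 1 (adjusted p = 7.3e-22, edgeR), and -1.02 ± 0.06 in ID3-KO cells (adjusted p = 4.8e-13, edgeR). TET3, the most abundant eraser, was not called in either genotype. Its untreated WT libraries had 75.1, 144.8 and 137.7 CPM and its treated ones 142.8, 152.6 and 139.4 CPM, and the ID3-KO libraries had 130.4, 115.9 and 122.5 CPM untreated and 113.4, 113.5 and 119.9 CPM treated. The log2 change was 0.29 ± 0.22 in WT cells, 0.03 without replicate 1, and -0.09 ± 0.05 in ID3-KO cells, with overlapping groups in each.

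**Figure D2:**
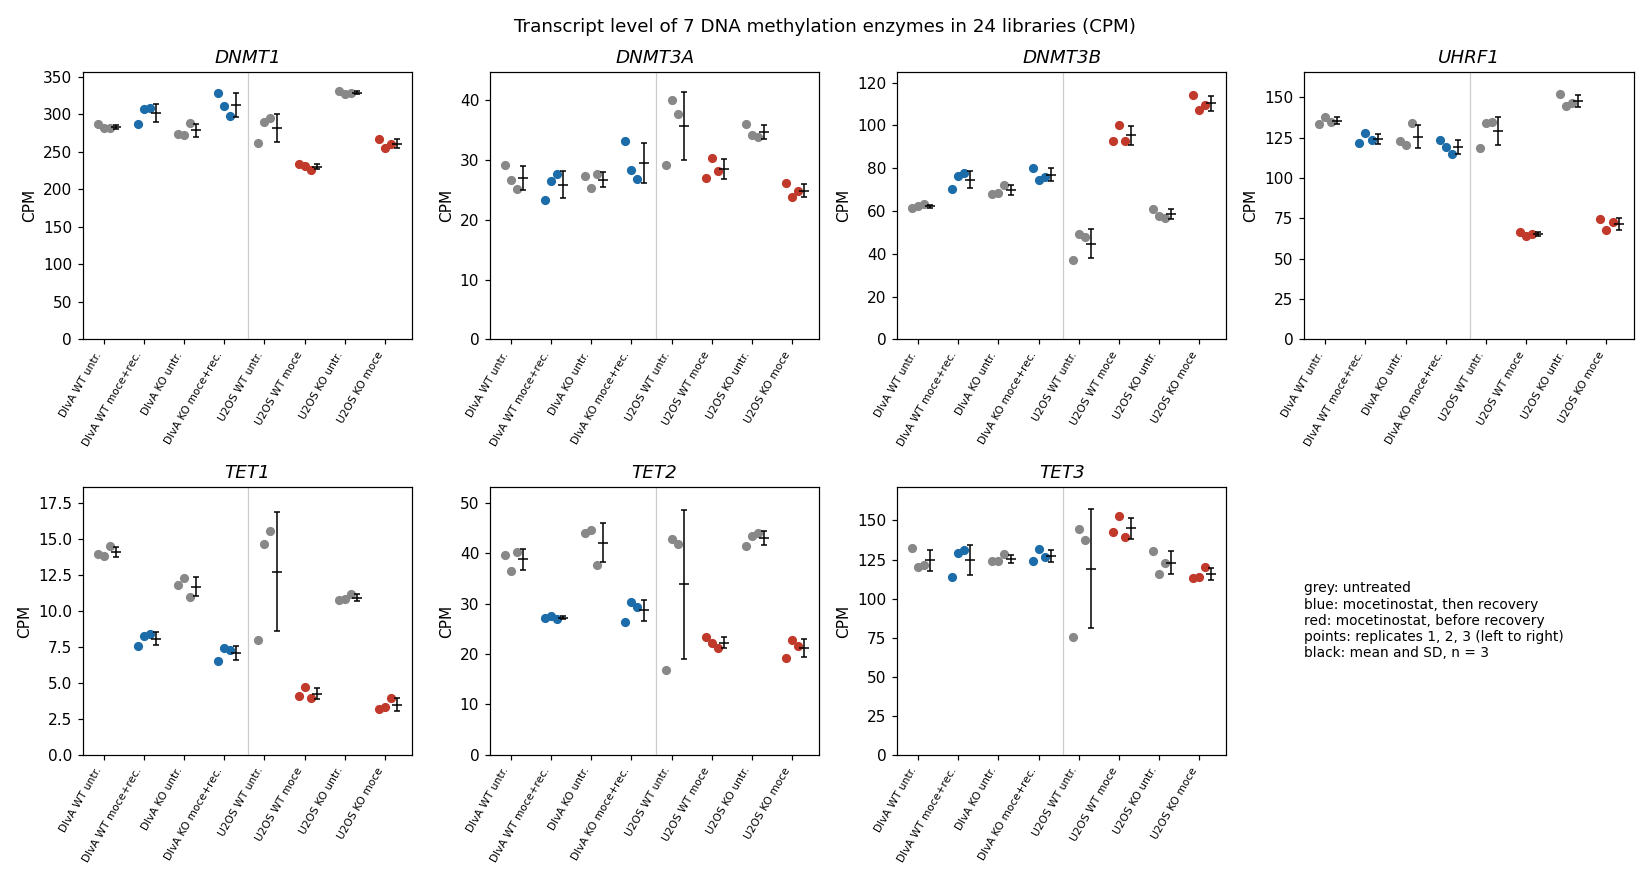
CPM of each of the 7 genes in every library, by group, with replicates 1 to 3 from left to right and the mean and SD (n = 3) beside them; grey is untreated, blue treated and recovered AID-DIvA, red treated U2OS cells. Red points lie below the grey ones of their genotype for UHRF1 and TET1 and above them for DNMT3B, and untreated WT U2OS replicate 1 lies low for TET2 (16.8 CPM) and TET3 (75.1 CPM).

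After 24 h of recovery, TET1 and TET2 were the 2 genes lower in both genotypes. In WT AID-DIvA cells 4 of the 7 genes were called, 1 higher and 3 lower, where 46.9% of 20289 genes were called, 23.9% higher and 23.0% lower. In ID3-KO cells 3 of the 7 were called, DNMT1 higher and TET1 and TET2 lower, where 40.1% of 20362 genes were called, 20.2% higher and 19.9% lower. No member changed by 2-fold or more with a call, where 7.38% and 7.46% of all genes did. TET1 was at 14.0, 13.8 and 14.5 CPM in untreated WT libraries and at 7.56, 8.25 and 8.36 CPM in recovered ones. In ID3-KO cells it was at 11.8, 12.3 and 10.9 CPM untreated and at 6.50, 7.40 and 7.25 CPM recovered. The recovered libraries were all lower, with a log2 change of -0.80 ± 0.07 in WT cells (adjusted p = 6.8e-07, edgeR) and -0.72 ± 0.09 in ID3-KO cells (adjusted p = 1.5e-04, edgeR). TET2 went from 39.7, 36.5 and 40.3 CPM to 27.1, 27.6 and 27.0 CPM in WT cells. In ID3-KO cells it went from 44.1, 44.6 and 37.7 CPM to 26.4, 30.3 and 29.4 CPM. The groups were again apart, with log2 changes of -0.50 ± 0.05 (adjusted p = 5.6e-06, edgeR) and -0.55 ± 0.09 (adjusted p = 8.8e-04, edgeR).

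The writers differed little from untreated cells after recovery. DNMT3B was at 61.5, 62.2 and 63.0 CPM in untreated WT libraries and at 70.1, 76.2 and 77.8 CPM in recovered ones, a log2 change of 0.27 ± 0.05 (adjusted p = 4.9e-04, edgeR). In ID3-KO cells it was at 68.1, 68.5 and 72.3 CPM untreated and at 80.3, 74.6 and 75.8 CPM recovered, a log2 change of 0.14 ± 0.06 that missed the threshold (adjusted p = 0.091, edgeR). UHRF1 was called in WT cells alone, at 134, 138 and 135 CPM untreated and 121.5, 128 and 124 CPM recovered, with a log2 change of -0.12 ± 0.04 (adjusted p = 0.033, edgeR). DNMT1 was called in ID3-KO cells alone, with a log2 change of 0.17 ± 0.06 (adjusted p = 0.047, edgeR), beside 0.10 ± 0.04 in WT cells (adjusted p = 0.069, edgeR). Both calls were lost with DESeq2 (adjusted p = 0.053 for UHRF1 and 0.070 for DNMT1) and without any of 4 single libraries. The UHRF1 change in ID3-KO cells was -0.07 ± 0.06. DNMT3A changed by -0.06 ± 0.07 and 0.14 ± 0.09 and TET3 by 0.01 ± 0.06 and 0.02 ± 0.06 on the log2 scale in WT and ID3-KO cells, none of them called and all with overlapping groups.

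**Figure D3:**
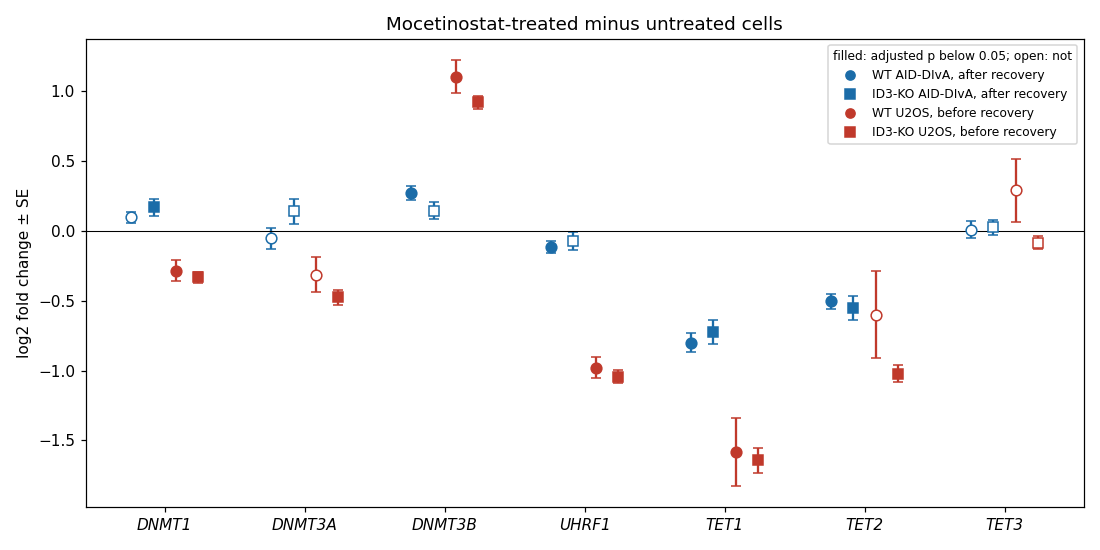
Log2 fold change of treated against untreated cells with its SE for each gene and each of the 4 treatment comparisons; blue is AID-DIvA after recovery, red U2OS before recovery, circles WT and squares ID3-KO, filled where the adjusted p of edgeR's test was below 0.05. TET1 is below 0 in all 4 comparisons, UHRF1 is at -0.98 and -1.04 before recovery against -0.12 and -0.07 after it, and DNMT3B at 1.10 and 0.92 against 0.27 and 0.14.

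The difference between the AID-DIvA response after recovery and the U2OS response before it was tested within each genotype on 12 libraries. In ID3-KO cells 6 of the 7 responses differed, where 52.5% of all genes did, and in WT cells 4 of the 7, where 42.2% of all genes did. Without untreated WT U2OS replicate 1, the WT difference was called above 0 for 5 of the 7 genes and below 0 for 1. In that fit 11829 of all 22758 genes tested were called. UHRF1 differed most in ID3-KO cells, by 0.96 ± 0.08 on the log2 scale (adjusted p = 2.0e-08, edgeR), and by 0.86 ± 0.09 in WT cells (adjusted p = 3.6e-06, edgeR). DNMT3B differed by -0.78 ± 0.08 in ID3-KO cells (adjusted p = 2.1e-07, edgeR) and by -0.84 ± 0.13 in WT cells (adjusted p = 1.5e-04, edgeR). Its rise was smaller in recovered AID-DIvA cells than in treated U2OS cells. For TET1 the difference was 0.91 ± 0.13 in ID3-KO cells (adjusted p = 6.1e-06, edgeR) and 0.77 ± 0.26 in WT cells (adjusted p = 0.026, edgeR). TET1 was lower than in untreated cells in both sets, and less so in recovered AID-DIvA cells than in treated U2OS cells. The WT difference of TET1 was lost without any 1 of 8 libraries (adjusted p = 0.05 to 0.065, edgeR). DNMT1 differed by 0.49 ± 0.08 in ID3-KO cells and 0.37 ± 0.08 in WT cells. TET2 differed in ID3-KO cells by 0.46 ± 0.11 (adjusted p = 1.7e-03, edgeR), and in WT cells by 0.09 ± 0.33, or by 0.42 without untreated replicate 1 (adjusted p = 9.1e-05, edgeR). DNMT3A differed in ID3-KO cells by 0.61 ± 0.11 (adjusted p = 1.6e-04, edgeR) and in WT cells by 0.25 ± 0.15, or by 0.38 without that replicate (adjusted p = 1.8e-03, edgeR). TET3 was not called in either genotype, at 0.10 ± 0.08 and -0.29 ± 0.24.

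Whether the response differed between ID3-KO and WT cells was tested by the product term of genotype and treatment. It was called by edgeR for 0 of the 7 genes in the AID-DIvA set, where 1.21% of all genes were called, and for 0 of the 7 in the U2OS set, where 2.15% were. At an unadjusted p below 0.05 the count was also 0 in both sets, by edgeR as by DESeq2, and the smallest adjusted p of edgeR was 0.56 in each. The terms lay between -0.12 and 0.20 in the AID-DIvA set, with SE of 0.07 to 0.12, and between -0.42 and -0.04 in the U2OS set, with SE of 0.08 to 0.34. The wide end belonged to TET2 in U2OS cells (-0.42 ± 0.34), which moved to -0.09 without untreated WT replicate 1. The SE set what 3 libraries per group could detect.

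Between genotypes no member was called with a 2-fold difference, where 4.58% of all genes were in untreated AID-DIvA and 3.49% in treated U2OS cells, and these comparisons share their libraries with the treatment comparisons. In untreated AID-DIvA cells 2 of the 7 genes were called, where 36.7% of all genes were. TET1 was lower in ID3-KO cells by -0.27 ± 0.06 (adjusted p = 3.3e-03, edgeR) and DNMT3B higher by 0.17 ± 0.05 (adjusted p = 8.6e-03, edgeR), each with replicates apart. Without WT replicate 1 the DNMT3B difference was 0.16 and missed the threshold, and without ID3-KO replicate 3 UHRF1 (-0.16) and TET2 (0.19) were called as well. After treatment and recovery 0 of the 7 were called by edgeR, where 23.7% of all genes were, and the count was 0 at an unadjusted p below 0.05 and by DESeq2 as well. In treated U2OS cells 5 of the 7 were called, where 37.9% of all genes were. The largest of these was TET3, at 113.4 to 119.9 CPM in ID3-KO cells against 139.4 to 152.6 CPM in WT cells, a log2 difference of -0.32 ± 0.05 (adjusted p = 1.5e-06, edgeR), which was -0.33 with an adjusted p of 0.22 when all 12 U2OS libraries shared 1 edgeR fit. DNMT3B was higher in ID3-KO cells by 0.22 ± 0.05, DNMT1 by 0.18 ± 0.04 and UHRF1 by 0.14 ± 0.05, and DNMT3A was lower by -0.19 ± 0.06. In untreated U2OS cells 0 of the 7 were called by edgeR, where 15.2% of all genes were, with 3 at an unadjusted p below 0.05 and 1, DNMT3B, called by DESeq2. Without untreated WT replicate 1, 6 of the 7 were called there, against 41.1% of all genes: DNMT1, DNMT3B and UHRF1 were then higher in ID3-KO cells by 0.17, 0.27 and 0.14, and DNMT3A, TET1 and TET3 lower by -0.17, -0.47 and -0.20, TET3 turning from 0.04.

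**Figure D4:**
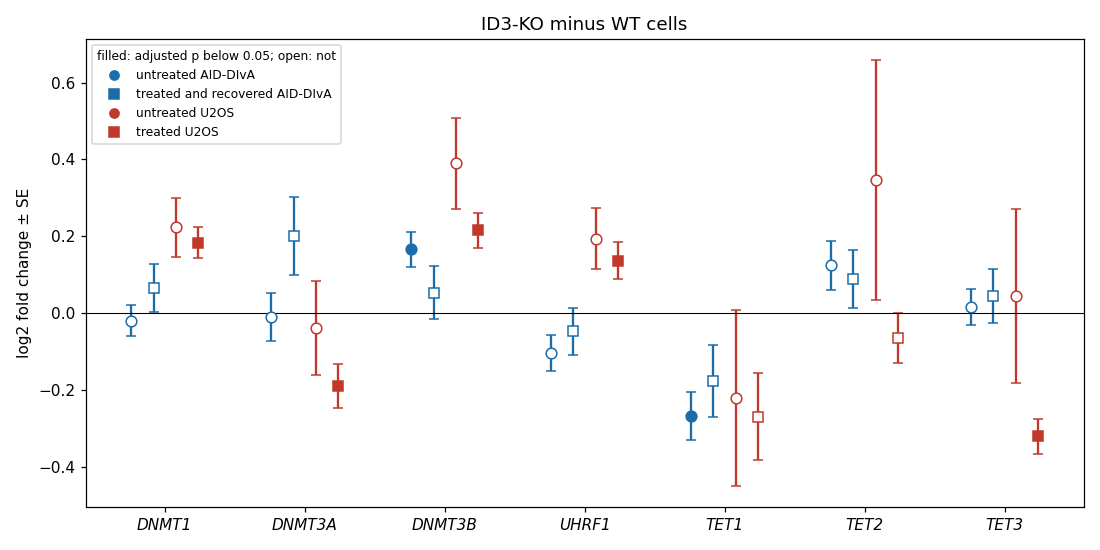
Log2 difference of ID3-KO from WT cells with its SE for each gene in 4 conditions; blue is AID-DIvA, red U2OS, circles untreated and squares treated, filled where the adjusted p of edgeR's test was below 0.05. DNMT3B is above 0 and TET1 below 0 in all 4 conditions, not all of them called, and the widest bars are those of TET1, TET2 and TET3 in untreated U2OS cells.

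Most of the genes that work with the writers were also lower before recovery. Over all genes, 22.9% were then lower and 26.0% higher in WT cells, and 34.0% and 35.8% in ID3-KO cells. After recovery the shares over all genes were 23.0% lower and 23.9% higher in WT, and 19.9% and 20.2% in ID3-KO cells. Of 12 tested maintenance and recruitment partners, 9 were lower and 1 higher in treated WT U2OS cells and 10 were lower and 1 higher in treated ID3-KO cells, with medians of -0.46 and -0.37 on the log2 scale against 0.01 and 0.00 over all genes. EHMT2, a histone H3 lysine 9 methyltransferase, fell by 0.87 and 0.79, and CDCA7, the partner of the remodeller HELLS, by 0.83 and 0.77. NSD1, a histone H3 lysine 36 methyltransferase, fell by 0.63 and 0.89. CDCA7L was the gene that rose, by 0.36 and 0.41, and is named here after its values were seen. After recovery the counts were 2 higher and 4 lower in WT cells and 1 higher and 2 lower in ID3-KO cells, of 12, with medians of -0.05 and -0.09. A list of 10 genes came from the families that include the methyl-CpG readers, and not every gene on it is such a reader. Of these 10, 6 fell in WT and 9 in ID3-KO cells before recovery, and none rose. MBD3, a subunit of the NuRD complex, fell by 1.11 and 0.92. After recovery 2 rose and 3 fell in WT cells and 1 rose and 3 fell in ID3-KO cells, and ZBTB38, a zinc finger reader, rose by 1.15 and 0.78. Without untreated WT replicate 1, 10 of 13 partners were lower and 2 higher in WT cells before recovery. Of the 10 genes of the reader families, 9 were then lower, where 66.4% of all genes were called in either direction.

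Genes downstream of the TET enzymes moved both ways. The share of all genes called, in either direction, was 48.9% in WT and 69.9% in ID3-KO cells before recovery. Without untreated WT replicate 1 it was 66.4% in WT cells. After recovery it was 46.9% in WT and 40.1% in ID3-KO cells. Of 15 tested genes of active demethylation, 4 rose and 4 fell in WT and 7 rose and 7 fell in ID3-KO cells before recovery, and without untreated WT replicate 1 the WT counts were 5 and 7. UNG, a uracil-DNA glycosylase, fell by 1.56 in both genotypes, the largest change of this list in each. GADD45A, a stress-induced gene linked to demethylation, rose in all 4 treatment comparisons, by 1.02 in WT and 0.92 in ID3-KO cells after recovery and by 1.02 and 0.80 before it. GADD45B, its paralog, rose by 0.89 and 0.52 before recovery and fell by 0.60 and 0.64 after it. IDH2, which makes the 2-oxoglutarate that TET enzymes use, rose by 0.60 and 1.11 before recovery. After recovery 5 rose and 4 fell of 14 in WT cells and 3 rose and 3 fell in ID3-KO cells, CXXC5, a TET2 partner, by -0.97 and -0.78. Among 11 genes of methyl donor synthesis, 1 rose and 4 fell in WT cells before recovery (3 and 6 without untreated replicate 1). In ID3-KO cells 2 rose and 6 fell before recovery. With all libraries, the part of this list called before recovery was near the share of all genes in both genotypes. After it 2 rose and 3 fell in WT and 4 rose and 3 fell in ID3-KO cells. MAT1A rose from 0.574 to 4.03 CPM in WT cells and from 0.569 to 4.43 CPM in ID3-KO cells before recovery, a low level beside that of its paralog MAT2A, which fell from 288 to 210 CPM and from 331 to 257 CPM. Of 8 germline genes known to be silenced by promoter methylation, 1 or 2 passed the filter on low counts, and MAGEA1, at 123 to 147 CPM in group means, changed by 0.07, 0.05, -0.23 and -0.17 in the 4 treatment comparisons, the last of which was called (adjusted p = 2.0e-03, edgeR).

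Before recovery, S phase genes fell beside the maintenance pair. Over all genes, 22.9% fell in WT and 34.0% in ID3-KO cells before recovery. Without untreated WT replicate 1, 66.4% of all genes were called in WT cells, in either direction. After recovery 23.9% of all genes rose and 23.0% fell in WT cells, and 20.2% and 19.9% in ID3-KO cells. Of 14 S phase genes, which include the partner PCNA, 13 fell and none rose in both genotypes before recovery, and their summed level went from 3412 ± 135 to 1892 ± 6.88 CPM in WT and from 3767 ± 21.4 to 2266 ± 21.6 CPM in ID3-KO cells (SD, n = 3). MCM5, a subunit of the replicative helicase, fell by 1.61 and 1.67, the largest change of this list in each genotype. After recovery 10 rose and 3 fell in WT and 8 rose and 2 fell in ID3-KO cells, and the sums were 3244 ± 8.09 CPM against 3043 ± 39.6 CPM and 3348 ± 57.8 CPM against 3145 ± 69.2 CPM. Of the mitosis genes, 3 of 8 fell in WT cells (6 of 8 without untreated replicate 1) and 6 of 8 fell and 1 rose in ID3-KO cells before recovery, and all 8 fell in both after it, their sums going from 4108 to 2591 CPM and from 3522 to 1849 CPM. CENPF, a kinetochore protein, fell most of them after recovery, by 0.91 and 1.13. UHRF1 was lowest in the groups where the S phase sum was lowest, the treated U2OS cells. After recovery the S phase sum was above the untreated one in both genotypes, whereas the mean of UHRF1 was below it. UHRF1 was at 124 against 135 CPM in WT cells, called by edgeR but not by DESeq2. In ID3-KO cells it was at 119 against 126 CPM, which was not called. The part of these cell-cycle changes in the values of UHRF1 and DNMT1 was not tested.

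**Figure D5:**
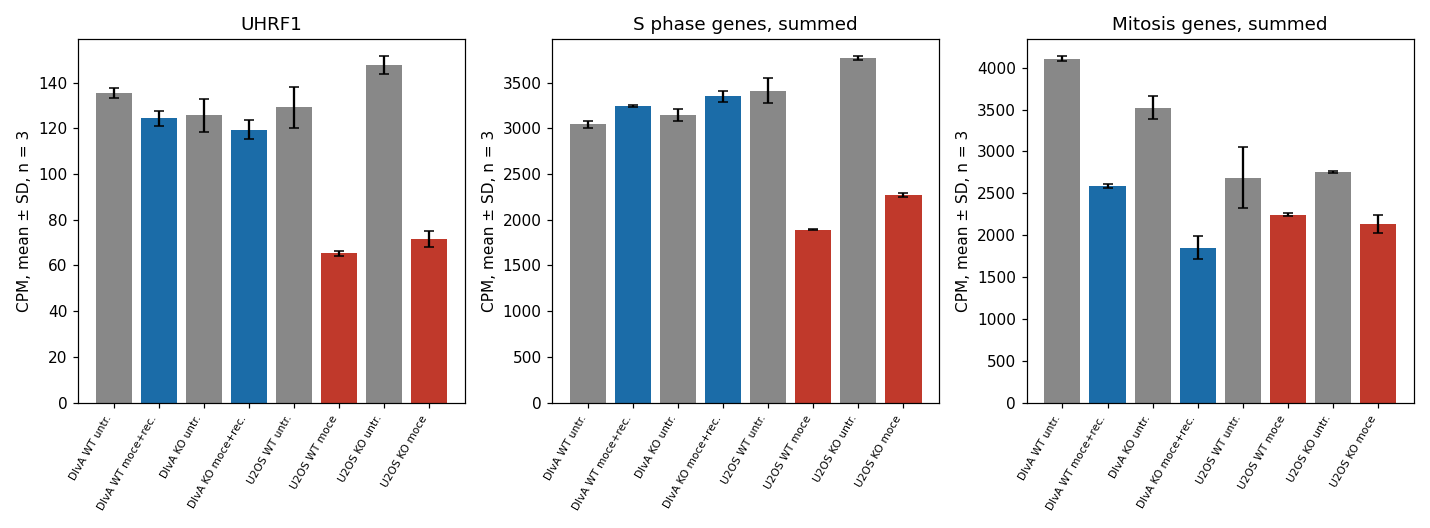
Group means with SD (n = 3) of UHRF1 CPM, of the summed CPM of 14 S phase genes and of the summed CPM of 8 mitosis genes in the 8 groups. The treated U2OS groups are lowest for UHRF1 (65.3 and 71.6 CPM) and for the S phase sum (1892 and 2266 CPM), and the recovered ID3-KO AID-DIvA group is lowest for the mitosis sum (1849 CPM).

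Over the 24 libraries, with the mean of each cell line removed, log2 CPM of UHRF1 correlated with that of TET1 (Pearson r = 0.875) and DNMT1 (r = 0.815), and inversely with that of DNMT3B (r = -0.845). TET1 correlated with TET2 (r = 0.839) and inversely with DNMT3B (r = -0.858). TET3 correlated with no other member beyond 0.353. These points share groups and treatment, and the values describe the 24 libraries. Among 11916 genes with a mean of at least 5 CPM, those most like UHRF1 were PHF15, ZBED3 and ZBTB2 (r = 0.984 for each), and those most like TET1 were PCDHB13 (r = 0.988), PBLD (r = 0.986) and CBX5 (r = 0.985). For DNMT3B they were ITPR1, KDM1B and NOTCH1 (r = 0.979, 0.977 and 0.973), and for TET2 they were BTBD7, USP24 and ARID2 (r = 0.978, 0.978 and 0.976). Genes like DNMT1 included SMG5 and BEND3 (r = 0.944 and 0.926), and genes like DNMT3A included GOLGA2 and PLCG1 (r = 0.918 and 0.914). TET3 had the weakest likeness, to MTMR3, ZBED6 and VPS13D (r = 0.920, 0.898 and 0.890).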

How the data were processed

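The 7 members and all gene lists were chosen with earlier results of these data known. The authors prepared stranded total RNA libraries, read them in pairs of 100 bases, aligned them to GRCh37 with STAR and counted with featureCounts; tool versions are not given in the sources used here. They deposited, per library, raw counts per gene from either strand and by strand, and TPM that sum to the same total in each library. Counts from either strand were used, since 99.6% to 100.0% of the members' counts were on the sense strand, and TPM only to set genes side by side. Members were taken by symbol.

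The tests ran in edgeR 4.0.16 under R 4.3.3 (filterByExpr, TMM, robust quasi-likelihood fit, Benjamini-Hochberg over all genes), and called at an adjusted p below 0.05. Pairwise comparisons used their own 6 libraries, and interactions and stage differences 12. SE is the log2 change divided by the square root of F. CPM uses TMM factors over the 12 libraries of a cell line. The fit was tested on simulated data. Alternatives were DESeq2 1.42.0, other scalings and filters, sense-strand counts, a replicate block, 1 fit per cell line, a fold minimum and leaving out each library; counts of calls without untreated WT U2OS replicate 1 were added after seeing the data. All 7 members, ID3, and up to 4 called genes of each list per comparison with large changes are named, and the 3 genes most like each member, apart from some that are not reported here. Replicate numbers did not pair the samples. Intervals of single libraries were not needed: at these depths the spread between 3 replicates sets the precision.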

Additional observations from a re-analysis of the deposited data

Results flagged for a closer look

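The treatment response differed between AID-DIvA cells after recovery and U2OS cells before it in a direct test of the difference (edgeR's quasi-likelihood test, 12 libraries per genotype). The differences, after recovery minus before it, are on the log2 scale, and stage and cell line label cannot be told apart. In WT cells the response of DNMT1 differed by 0.37, that of UHRF1 by 0.86, that of TET1 by 0.77 and that of DNMT3B by -0.84. The TET1 call in WT cells was lost in several fits that left out 1 library, and with library totals. Without untreated WT U2OS replicate 1, DNMT3A and TET2 were called in WT cells as well. In ID3-KO cells DNMT1 differed by 0.49, UHRF1 by 0.96, DNMT3A by 0.61, TET1 by 0.91, TET2 by 0.46 and DNMT3B by -0.78. In both genotypes, DNMT1, UHRF1 and TET1 were nearer to or above their untreated level in recovered AID-DIvA cells than in treated U2OS cells. DNMT3B was nearer to its untreated level there.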

How the results depend on the processing

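Of 1316 log2 values of the 7 genes under alternatives, 1246 kept their side of the threshold, 31 of them with a change of sign where neither value passed the test, 41 lost and 28 gained a call, and 1 reversed: TET3 between untreated genotypes of U2OS was -0.20 without untreated WT replicate 1 and at most 0.21 without any other library, against 0.04. With a minimum change of 2-fold, 0 of the 7 genes were called after recovery in WT and in ID3-KO cells, 2 and 3 before recovery, and 0 between genotypes in untreated AID-DIvA and in treated U2OS cells. Between untreated U2OS genotypes the count was 1 with DESeq2, 1 without a filter on low counts and 3 with all 12 libraries in 1 fit, which left 1 between treated U2OS genotypes. Leaving out 1 library gave 3 to 5 and 2 to 3 called genes after recovery (WT, ID3-KO), 3 to 6 and 6 to 7 before it, 1 to 4 between untreated AID-DIvA genotypes, 0 to 6 and 3 to 5 between untreated and treated U2OS genotypes, 0 in both interactions and between recovered genotypes, and 3 to 6 and 6 for the stage difference. TET1 in the WT stage difference was 0.69 with library totals (adjusted p = 0.066, edgeR). For all genes, 3132 calls between untreated U2OS genotypes became 5658 with 12 libraries, 8627 without untreated WT replicate 1 and 1266 to 1295 without an ID3-KO replicate. The 8267 between treated U2OS genotypes became 4389 with 12 libraries, and 4759 between recovered genotypes 3152 with the replicate block. The 258 interaction calls in AID-DIvA cells ranged from 122 to 613, and the 488 in U2OS cells from 257 to 2091, the latter without untreated WT replicate 1. Scaling to library totals moved the median of all genes to 0.10 in WT U2OS treatment and to -0.11 and -0.14 in the stage differences. The causes were not tested.

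Same-numbered libraries did not deviate together: r lay between -0.35 and 0.34 over 60 pairs, 11 of them over 0.1, and 22 matched their own number best. With the replicate block, 3, 2, 5 and 6 of the 7 genes were called in the treatment comparisons (WT and ID3-KO after recovery, WT and ID3-KO before it), 2, 0, 0 and 6 between genotypes (untreated AID-DIvA, untreated U2OS, recovered, treated U2OS), 0 in both interactions and 4 and 6 in the stage differences. TET1, at 172 to 1027 counts, is the member that depth limits most. The highest over the lowest group mean was 1.33 for DNMT1 and 2.10 for UHRF1 in TPM, a ratio outside the replicate spread of that in CPM.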
